A study of Mus musculus with 9 samples.

Results

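The T cell receptor complex and its proximal signalling machinery were followed here as 44 mouse genes, chosen by symbol from textbook knowledge of the pathway. The choice was made with earlier results of these data known. The 44 genes comprise 7 receptor chains, 22 activating kinases, enzymes and adaptors, and 15 negative regulators. Each of the 44 symbols matched 1 of the 55487 gene identifiers in the files, and each passed the filter on low counts that left 13043 genes for testing. The RNA came from naive CD4+ T cells, that is, helper T cells that have not met antigen. They were taken from lymph nodes of C57BL6/J mice of WT genotype, and polyadenylated RNA was read by sequencing. The 9 libraries form 3 groups of 3, namely cells processed fresh, cells kept in culture for 20 h without the cytokine interleukin-1 beta (cultured), and cells kept in culture for the same 20 h in the presence of 10 ng/mL recombinant IL-1b (IL-1b-treated). All 3 groups share the genotype and tissue, and the labels give no receptor stimulus, sex, age or number of mice. The series title states the comparison of treated with untreated cells. The labels do not say whether replicate libraries came from separate animals or cultures, so the p-values may measure only technical spread.

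In the textbook view, the receptor's alpha and beta chains bind a peptide held by an MHC molecule and have no signalling tail of their own. The CD3 gamma, delta and epsilon chains and the zeta chain carry tyrosine motifs that the kinase Lck phosphorylates, and Zap70 docks there and phosphorylates the scaffolds Lat and Lcp2. From these scaffolds phospholipase C gamma, Ras exchange factors, protein kinase C theta and actin regulators are set in motion, while Csk, phosphatases, Cbl ligases and diacylglycerol kinases hold the pathway down. In naive T cells the pathway is kept expressed and poised without stimulation.

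Total counts ranged from 13518818 to 23056660 per library, and replicate 3 of the IL-1b-treated cells lay at 39.6 on the third principal component of all genes, while replicates 1 and 2 lay at -14.0 and -19.8. The labelled cell type matched its markers, since the 7 naive CD4 T cell markers summed to 3800 to 3900 TPM in fresh, 3100 to 3130 in cultured and 2570 to 2610 TPM in IL-1b-treated cells, and none was at 0. B cell markers summed to 116 to 142 TPM in fresh cells, 7.07 to 9.14 in cultured and 6.37 to 8.72 TPM in IL-1b-treated cells, and 10 of the 10 tested were lower in cultured than in fresh cells. Neutrophil markers summed to 14.0 to 36.1 TPM in fresh cells and at most 0.4 TPM in cultured and 1.38 TPM in IL-1b-treated cells. NK cell markers summed to 41.8 to 47.7 TPM in fresh cells and 7.01 to 8.95 TPM in cultured cells. That sum was mostly Prf1 (means of 37.7 and 6.9 TPM), while Ncr1, Klrb1c and Klra8 averaged at most 0.32 TPM in fresh cells. The 2 CD8 markers went from 23.8 to 25.6 TPM in fresh up to 41.2 to 50.1 TPM in cultured cells. Myeloid markers summed to 71.3 to 83.4 TPM in fresh, 82.1 to 88.3 TPM in cultured and at most 101 TPM in IL-1b-treated cells, a sum carried by Cst3 (means of 55.5, 82.8 and 92.2 TPM in these groups). Of the 6 myeloid markers tested 4 were lower in cultured than in fresh cells, among them Lyz2, which went from 12.5 to 0.1 TPM, and Tyrobp, from 3.56 to 0.0867 TPM. Gamma delta T cell markers stayed between 4.25 and 5.56 TPM in all libraries. Of the 4 stromal markers Col3a1 and Pdpn were listed at 0 throughout. The stromal sum was 149 to 162 TPM in fresh, 180 to 181 in cultured and 140 to 149 TPM in IL-1b-treated cells. It was carried by Pecam1 (means of 158, 180 and 145 TPM in these groups). Several members, among them Ptprc, Ptpn6, Csk, Pag1, Was and Vav1, are also expressed by B cells or other leukocytes, and the part of these cells in the differences from fresh cells was not tested. In such bulk RNA, fewer cells of a type and less RNA per cell cannot be told apart.

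Levels between genes are compared as TPM (a library-scaled value that divides by gene length). Levels of 1 gene between libraries are given as CPM, counts scaled to the library total after TMM normalisation, the scale of the tests. Log2 fold changes are printed ± SE, group means ± SD over n = 3 libraries, and p-values are those of edgeR's quasi-likelihood test, adjusted by Benjamini-Hochberg over 13043 genes, with a threshold of 0.05. TMM sets the median gene near no change. On the log2(TPM + 1) scale, called the TPM scale below, the median gene lay at -0.25 for IL-1b-treated against cultured cells, -0.19 for cultured against fresh cells and -0.45 for IL-1b-treated against fresh cells. A rise or fall below is therefore relative to the median gene, and a called member that changes sign on the TPM scale is named as such. A second check removed, per library, any trend of counts with GC content and transcript length.

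Over 20 h of culture without IL-1b most of the signalling machinery fell, including Lck, Fyn, Zap70, Lat, Plcg1 and their restraints Csk, Pag1 and Ptpn6, while Rasgrp1, Trat1 and Txk rose 1.9 to 2.32-fold and Tespa1 fell 4.66-fold. With IL-1b added, 6 of the 7 receptor chains were higher than in cultured cells relative to the median gene, and Cd3e was lower. On the TPM scale Cd3d and Cd3g were the 2 chains still called higher, Trbc1 and Trbc2 were not called, and Cd247 and Trac had the other sign. The differences of all 44 members with IL-1b were smaller than 2-fold. Cd3d rose and Cd3e fell at each step, so that the ratio of these neighbouring genes went from 1.64 in fresh cells to 0.468 in IL-1b-treated cells. Between cultured and fresh cells 13 members were higher, 27 lower and 4 not called, against 58.2% of all tested genes called (29.4% higher and 28.9% lower). Between IL-1b-treated and cultured cells 17 were higher, 12 lower and 15 not called, against 28.9% of all tested genes (15.6% higher and 13.3% lower). Most members were abundant, from the 40.7 (Ubash3b) to the 99.3 percentile (Trbc2) of tested genes by TPM in fresh cells. Small differences are more easily called at high counts, and no share was taken over genes of like level. The median log2 fold change over the 44 members was -0.38 in the first comparison and 0.02 in the second, where that of all tested genes was 0.00 and -0.01. Both comparisons share the cultured libraries, so their values are set side by side without a test of one against the other.

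**Figure D1:**
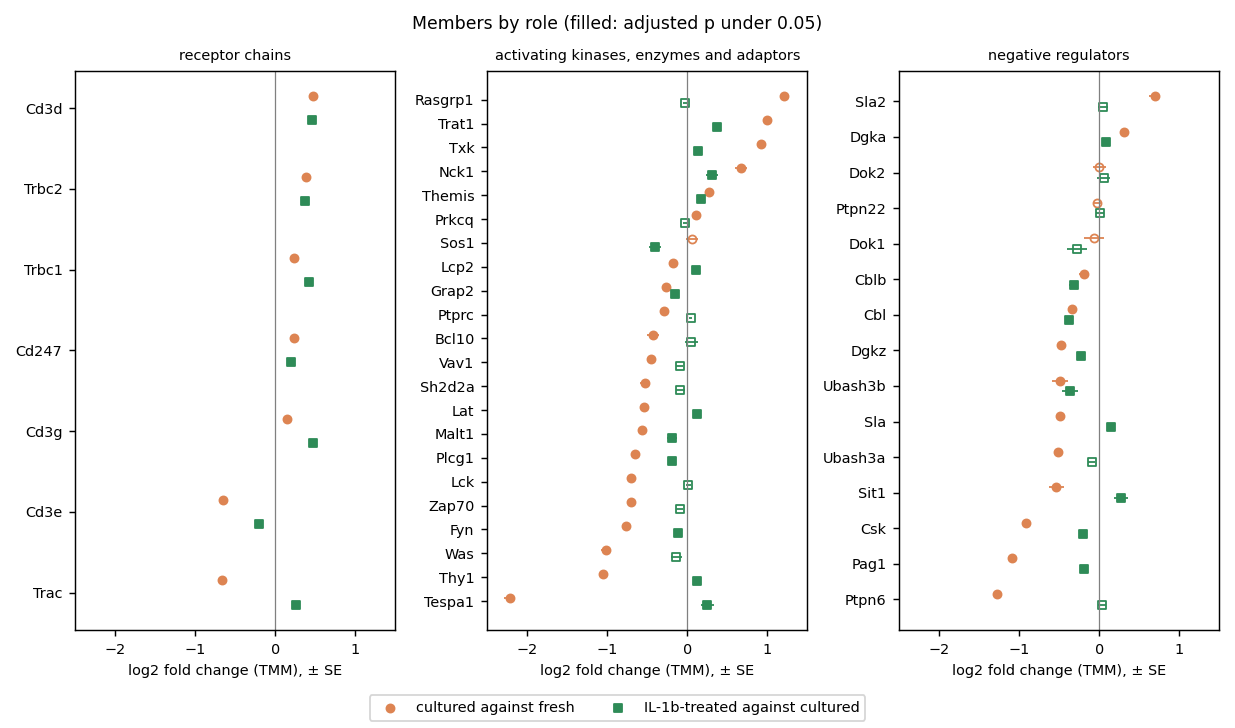
Log2 fold change (TMM-scaled counts, x axis, ± SE) of the 44 members in 3 role groups, for cultured against fresh cells (circles) and IL-1b-treated against cultured cells (squares); filled symbols passed the adjusted p threshold. Tespa1 lies farthest left at -2.22 and Rasgrp1 farthest right at 1.21 in culture, while all IL-1b differences lie between -0.40 and 0.48.

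The receptor chains were among the most abundant transcripts of the module. Trbc2, the second beta constant region, led with 1990, 2147 and 2202 TPM in fresh, cultured and IL-1b-treated cells, and Trbc1, the first, followed at 1120, 1104 and 1154 TPM. Trac, the alpha constant region, stood at 1121, 573 and 546 TPM in the same order, Cd3g at 622, 582 and 654 TPM, Cd3e at 529, 280.5 and 189 TPM, Cd247 (the zeta chain) at 406, 403 and 373 TPM and Cd3d at 323, 377 and 404 TPM. In fresh cells Cd3d was thus the least abundant of the 7 chains, and in IL-1b-treated cells Cd3e was. The 3 CD3 genes form a cluster of 40056 bases on chromosome 9 of mm10, with Cd3g (ENSMUSG00000002033, chr9:44969572-44980431, minus strand), Cd3d (ENSMUSG00000032094, chr9:44981786-44987339, plus strand) and Cd3e (ENSMUSG00000032093, chr9:44998740-45009627, minus strand). The starts of Cd3g and Cd3d lie 1355 bases apart and face away from each other. Cd247 (ENSMUSG00000005763) lies on chromosome 1 at chr1:165788681-165877277.

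The promoter windows of the 4 signalling chains are shown because 2 of these neighbours moved in opposite directions, and those of Rasgrp1 and Ptpn6 because these 2 rose most and fell most in culture among the 33 of 44 members that matched RefSeq's promoter table (GRCm38.p6, 250 bases before to 50 after the start). Dok1, Dok2, Malt1, Pag1, Sh2d2a, Sla, Tespa1, Thy1, Trac, Trbc1 and Trbc2 had no match. Capitals mark matches, on either strand, to the ETS-type motif AGGAAGT, the GC box GGGCGG and the E-box CAGCTG. The 3 other motifs searched, the RUNX motif TGTGGT, the GC-rich ETS motif CCGGAA and the TATA motif TATAAA, had no match in these 6 windows.
Cd3d, chr9:44981536-44981835, plus strand: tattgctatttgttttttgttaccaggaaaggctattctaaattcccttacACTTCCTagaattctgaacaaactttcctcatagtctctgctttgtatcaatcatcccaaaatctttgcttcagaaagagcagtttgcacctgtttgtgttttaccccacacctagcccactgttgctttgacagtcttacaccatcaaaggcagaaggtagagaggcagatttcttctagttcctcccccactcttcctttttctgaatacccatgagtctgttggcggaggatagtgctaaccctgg
Cd3g, chr9:44980382-44980681, minus strand: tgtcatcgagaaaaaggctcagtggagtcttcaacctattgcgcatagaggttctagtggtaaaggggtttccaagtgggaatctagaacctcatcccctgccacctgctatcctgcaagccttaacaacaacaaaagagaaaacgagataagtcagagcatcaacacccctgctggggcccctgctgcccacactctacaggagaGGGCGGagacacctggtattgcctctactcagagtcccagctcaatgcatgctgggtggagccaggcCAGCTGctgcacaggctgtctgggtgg
Cd3e, chr9:45009562-45009861, minus strand: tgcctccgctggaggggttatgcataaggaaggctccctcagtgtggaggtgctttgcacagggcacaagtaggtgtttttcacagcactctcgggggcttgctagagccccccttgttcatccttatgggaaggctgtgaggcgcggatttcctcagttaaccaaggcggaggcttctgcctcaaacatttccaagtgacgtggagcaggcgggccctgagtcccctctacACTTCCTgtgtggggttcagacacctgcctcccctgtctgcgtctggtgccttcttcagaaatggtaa
Cd247, chr1:165788431-165788730, plus strand: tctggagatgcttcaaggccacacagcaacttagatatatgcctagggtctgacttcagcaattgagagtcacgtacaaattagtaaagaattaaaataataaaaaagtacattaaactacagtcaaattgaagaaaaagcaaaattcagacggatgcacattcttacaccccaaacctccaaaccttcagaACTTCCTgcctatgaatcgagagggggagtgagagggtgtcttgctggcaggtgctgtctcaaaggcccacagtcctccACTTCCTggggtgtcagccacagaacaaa
Rasgrp1, chr2:117342828-117343127, minus strand: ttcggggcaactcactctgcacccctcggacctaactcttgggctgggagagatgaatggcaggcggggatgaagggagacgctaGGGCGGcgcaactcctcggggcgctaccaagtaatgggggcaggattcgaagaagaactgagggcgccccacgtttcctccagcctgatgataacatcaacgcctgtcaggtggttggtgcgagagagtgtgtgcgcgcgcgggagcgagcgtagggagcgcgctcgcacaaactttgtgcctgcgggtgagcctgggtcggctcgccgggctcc
Ptpn6, chr6:124738660-124738959, minus strand: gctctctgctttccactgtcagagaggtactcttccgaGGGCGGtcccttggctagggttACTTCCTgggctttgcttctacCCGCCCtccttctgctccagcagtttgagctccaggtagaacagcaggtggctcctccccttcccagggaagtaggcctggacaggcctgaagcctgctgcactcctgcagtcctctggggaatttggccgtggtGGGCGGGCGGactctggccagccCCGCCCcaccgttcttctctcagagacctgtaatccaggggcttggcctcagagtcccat

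The motif AGGAAGT, a recognition sequence of ETS factors, occurred once in the windows of Cd3d, Cd3e and Ptpn6 and 2 times in that of Cd247, each time read as ACTTCCT on the printed strand. It was added to the search after these sequences had been seen, and 30.3% of the members' windows (10 of 33) and 9.4% of all 32851 windows in the table held it. The 10 were Cd247, Cd3d, Cd3e, Dgkz, Lck, Ptpn6, Ptprc, Txk, Vav1 and Was, which include members that rose and members that fell in culture. The GC box occurred in 42.4% of the members' windows and 35.7% of all windows, and 5 times in that of Ptpn6, where 2 of the matches overlap. Shares for the other motifs were 18.2 and 16.8% (RUNX), 15.2 and 14.9% (GC-rich ETS), 12.1 and 16.3% (E-box) and 9.1 and 13.6% (TATA). The 2 ETS motifs share the core GGAA, but a single site cannot match both. Matches describe letters only, and no factor's binding was measured.

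Cd3d and Cd3e moved apart from fresh to cultured to IL-1b-treated cells. The level of Cd3d was 279.5, 272 and 267 CPM in the 3 fresh libraries, 379, 377 and 384 CPM in the cultured ones and 526, 516 and 528 CPM in the IL-1b-treated ones. The 3 groups did not overlap and each step was upward (log2 fold change 0.48 ± 0.03, adjusted p = 5.09e-12 in culture and 0.46 ± 0.03, adjusted p = 5.88e-11 with IL-1b). Cd3e, whose tail also binds the adaptor Nck1, was at 400.0, 393 and 398 CPM in the 3 fresh libraries, 248, 261 and 248 CPM in the cultured ones and 228, 214 and 214 CPM in the IL-1b-treated ones. These groups did not overlap either, and each step was downward (-0.65 ± 0.03, adjusted p = 2.09e-13 and -0.21 ± 0.04, adjusted p = 1.19e-04). The 2 genes kept their calls and directions in all 3 comparisons under the 11 other settings that used every library. The TPM ratio of Cd3e to Cd3d was 1.64 ± 0.0590 in fresh, 0.744 ± 0.0225 in cultured and 0.468 ± 0.00945 in IL-1b-treated cells, and that of Cd3e to Cd3g 0.852 ± 0.0355 in fresh, 0.482 ± 0.00964 in cultured and 0.289 ± 0.00119 in IL-1b-treated cells. Neither ratio overlapped between groups, and 3 libraries against 3 allow an exact permutation test no p below 0.1, so the ratios were not tested.

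Cd3g was measured at 338, 338 and 319 CPM in the 3 fresh libraries, 360.5, 384 and 360.3 CPM in the cultured ones and 522, 513 and 502 CPM in the IL-1b-treated ones. The IL-1b-treated libraries were all above the cultured ones (0.48 ± 0.03, adjusted p = 3.23e-10), and this call held in the same 11 settings. In culture the gene differed little (0.15 ± 0.03, adjusted p = 7.14e-04), and that sign turned to -0.10 on the TPM scale and to -0.26 with the GC and length trend removed. Cd247 stood at 362, 360.4 and 336 CPM in the 3 fresh libraries, 410.2, 410.4 and 426 CPM in the cultured ones and 457, 499 and 476 CPM in the IL-1b-treated ones. It rose in culture (0.24 ± 0.04, adjusted p = 7.36e-06) and with IL-1b (0.20 ± 0.04, adjusted p = 1.93e-04) without overlap of the groups, but on the TPM scale both signs turned, to -0.01 and -0.11. The opposite strand of Cd247 overlaps Pou2f1, which had a mean of 2470 counts in fresh cells against 6540 for Cd247, and the strand setting of the counting is not given.

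Among the constant regions, alpha and beta parted in culture. Trac was at 464, 472 and 459.9 CPM in the 3 fresh libraries, 288, 292 and 297 CPM in the cultured ones and 355, 341 and 355 CPM in the IL-1b-treated ones. It fell in culture (-0.67 ± 0.03, adjusted p = 1.37e-14) and lay between fresh and cultured cells with IL-1b (0.26 ± 0.03, adjusted p = 1.15e-06 against cultured cells), and the latter sign turned to -0.07 on the TPM scale. Trbc1 was at 349.5, 328 and 332 CPM in the 3 fresh libraries, 382, 397 and 413 CPM in the cultured ones and 490.0, 567 and 539 CPM in the IL-1b-treated ones, and Trbc2 at 599, 587 and 574 CPM in the 3 fresh libraries, 772, 745 and 773 CPM in the cultured ones and 932, 1021 and 1005 CPM in the IL-1b-treated ones. The 2 beta regions are near-identical and share reads, with fractional counts in all 9 libraries, so their sum is given as well. It was 948, 915 and 906 CPM in fresh, 1153, 1142 and 1186 CPM in cultured and 1422, 1588 and 1544 CPM in IL-1b-treated libraries. Each beta region rose in culture (Trbc1 0.24 ± 0.04, Trbc2 0.38 ± 0.03) and with IL-1b (Trbc1 0.42 ± 0.04, adjusted p = 1.09e-07; Trbc2 0.37 ± 0.03, adjusted p = 8.18e-09), but these calls depended on the scaling. On the TPM scale Trbc1 in culture was at -0.02, and the IL-1b differences were 0.06 for Trbc1 and 0.04 for Trbc2 and not called (limma, adjusted p = 0.466 and 0.465). After removal of the GC and length trend, Trbc1 in culture was at 0.04 and not called, and Trac with IL-1b was at 0.05 and not called. The TPM ratio of Trac to both beta regions was 0.360 ± 0.00954 in fresh, 0.176 ± 0.0101 in cultured and 0.163 ± 0.0163 in IL-1b-treated cells, lower in every cultured than in every fresh library and overlapping between cultured and IL-1b-treated cells. As a share of all counts, the 7 chains together made up 0.289% ± 0.00553 in fresh, 0.291% ± 0.00312 in cultured and 0.337% ± 0.00824 in IL-1b-treated cells (SD, n = 3). Their summed TPM was 6111 ± 39.3 in fresh, 5465 ± 107 in cultured and 5523 ± 175 in IL-1b-treated cells, lower in every cultured than in every fresh library and overlapping between cultured and IL-1b-treated cells.

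**Figure D2:**
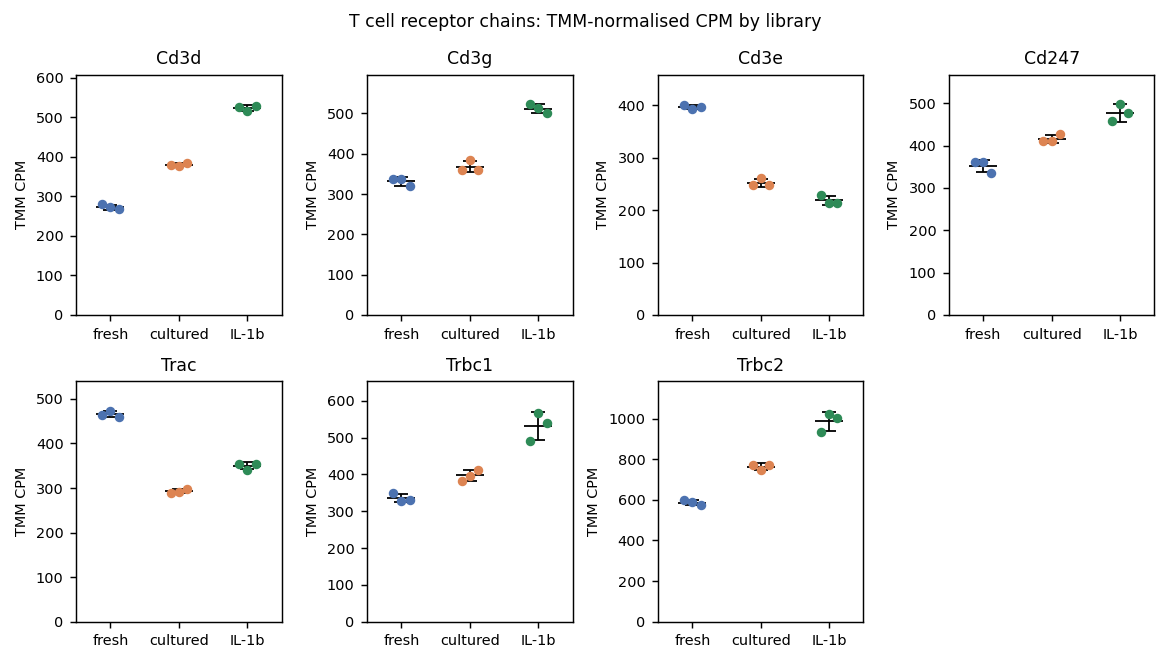
TMM-normalised CPM (y axis, from 0) of the 7 receptor chains in the 9 libraries, in 3 groups; points are libraries and bars the mean ± SD of 3. Cd3d climbs from 273 to 523 CPM while Cd3e descends from 397 to 219 CPM, and Trac is highest in fresh cells.

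Of the 22 activating kinases, enzymes and adaptors, 6 rose, 15 fell and Sos1 was not called in culture, with a median of -0.44. With IL-1b against cultured cells 8 rose, 5 fell and 9 were not called, with a median of -0.01. Of all tested genes, 29.4% were higher and 28.9% lower in culture, and 15.6% higher and 13.3% lower with IL-1b. The share of all counts held by these 22 was 1.01% ± 0.00536 in fresh, 0.841% ± 0.00148 in cultured and 0.783% ± 0.00532 in IL-1b-treated cells (SD, n = 3), and no libraries of different groups overlapped. With library size alone, the scale of such shares, the median of the 22 was -0.50 in culture and -0.12 with IL-1b. Medians of all tested genes were -0.05 and -0.12 on that scale. B cell markers, given above, fell over the same culture comparison.

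Rasgrp1, the exchange factor through which diacylglycerol activates Ras, had the largest rise of the module in culture. It lies on chromosome 2 at chr2:117279993-117343001 (ENSMUSG00000027347) and was at 492, 510.5 and 510.5 CPM in the 3 fresh libraries, 1165, 1163 and 1173 CPM in the cultured ones and 1174, 1128 and 1125 CPM in the IL-1b-treated ones. Cultured libraries were thus 2.32-fold above fresh ones (1.21 ± 0.03, adjusted p = 2.83e-20) and overlapped with IL-1b-treated ones, whose difference was not called (-0.03 ± 0.03). Sos1, the other Ras exchange factor of the module, was at 67.4, 61.5 and 65.0 (fresh), 68.1, 71.2 and 62.6 (cultured) and 56.6, 45.8 and 50.1 CPM (IL-1b-treated). It was not called in culture (0.06 ± 0.07) and had the largest fall with IL-1b on the TMM scale (-0.40 ± 0.07, adjusted p = 2.35e-04). The call held in all 11 other settings, but the rank did not, since Cd3e was lower with the GC and length trend removed (-0.30 against -0.27) and Ubash3b on the TPM scale (-0.66 against -0.64). In TPM, Rasgrp1 stood at 171, 328 and 257 TPM and Sos1 at 13.2, 11.3 and 6.90 TPM in fresh, cultured and IL-1b-treated cells.

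Trat1, a transmembrane adaptor that associates with the receptor, was at 124, 127 and 123 CPM in the 3 fresh libraries, 241, 259.8 and 247 CPM in the cultured ones and 339, 319 and 311 CPM in the IL-1b-treated ones. It doubled in culture (1.00 ± 0.04, adjusted p = 1.53e-15) and rose again with IL-1b (0.37 ± 0.04, adjusted p = 1.45e-07), without overlap and with the same call in the 11 other settings. Txk, a Tec family kinase, was at 176, 164 and 167 (fresh), 314, 322 and 328 (cultured) and 362, 349 and 349 CPM (IL-1b-treated). Its rise in culture (0.93 ± 0.04, adjusted p = 6.00e-16) was followed by a small one with IL-1b (0.14 ± 0.03, adjusted p = 0.00430) that turned to -0.12 on the TPM scale. Nck1, the adaptor that binds the tail of Cd3e, was at 35.6, 40.7 and 37.8 (fresh), 61.2, 65.5 and 55.0 (cultured) and 76.4, 71.2 and 77.6 CPM (IL-1b-treated) and rose in culture (0.68 ± 0.07, adjusted p = 4.99e-08) and with IL-1b (0.31 ± 0.07, adjusted p = 0.00190), the second no longer called on the TPM scale (0.04) or with the GC and length trend removed (0.15). Themis, which binds phosphatases near the receptor, rose in culture (0.27 ± 0.04, adjusted p = 6.72e-07) and with IL-1b (0.17 ± 0.04, adjusted p = 0.00101), but the signs turned to -0.03 and -0.17 on the TPM scale. Prkcq, protein kinase C theta, rose slightly in culture (0.11 ± 0.03, adjusted p = 0.00288), with -0.07 on the TPM scale, and was not called with IL-1b.

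Tespa1, an adaptor that links phospholipase C gamma to calcium release, fell more than any other member. It was at 86.5, 91.9 and 89.0 CPM in the 3 fresh libraries, 19.7, 18.8 and 18.9 CPM in the cultured ones and 23.4, 21.5 and 23.2 CPM in the IL-1b-treated ones. The drop in culture was 4.66-fold (-2.22 ± 0.07, adjusted p = 3.88e-17) and took the gene from the 92.2 to the 62.5 percentile of tested genes by TPM. With IL-1b it was slightly higher than in cultured cells (0.25 ± 0.08, adjusted p = 0.0228), a call lost without replicate 1 or 3 of the IL-1b-treated cells or replicate 2 or 3 of the cultured cells (highest adjusted p = 0.0633) and at -0.20 on the TPM scale. Thy1, an abundant glycosylphosphatidylinositol-anchored surface protein, was at 626, 610.2 and 627 (fresh), 303, 293 and 300.4 (cultured) and 327, 332 and 317 CPM (IL-1b-treated). It fell in culture (-1.06 ± 0.03, adjusted p = 3.84e-18) and was higher with IL-1b (0.12 ± 0.03, adjusted p = 0.00426), although at -0.25 on the TPM scale.

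The receptor-proximal kinases fell in culture as well. Lck, which phosphorylates the receptor's tyrosine motifs, was at 939, 945 and 958 CPM in the 3 fresh libraries, 588, 556 and 599.8 CPM in the cultured ones and 573, 597 and 588 CPM in the IL-1b-treated ones. Its fall in culture was clear of overlap (-0.70 ± 0.03, adjusted p = 2.99e-15), while IL-1b-treated and cultured libraries overlapped (0.01 ± 0.03, adjusted p = 0.818). Fyn, the related Src family kinase, was at 426, 439 and 418 CPM in fresh, 257, 244 and 252 CPM in cultured and 231, 232 and 230.1 CPM in IL-1b-treated cells. It fell in culture (-0.77 ± 0.03, adjusted p = 3.09e-15) and a little further with IL-1b (-0.12 ± 0.03, adjusted p = 0.00883), the latter lost without cultured replicate 1 (adjusted p = 0.0577) and after removal of the GC and length trend (-0.08). Zap70, the kinase that docks on phosphorylated CD3 and zeta chains, fell in culture (-0.71 ± 0.04, adjusted p = 3.39e-12) and was not called with IL-1b (-0.09 ± 0.05). Ptprc, the phosphatase CD45 that keeps Lck active, fell in culture (-0.29 ± 0.02, adjusted p = 1.29e-10) and was not called with IL-1b (0.04 ± 0.02). The TPM ratio of Lck to Fyn was 3.84 ± 0.320 in fresh, 3.91 ± 0.149 in cultured and 4.42 ± 0.246 in IL-1b-treated cells, and fresh libraries overlapped with both other groups.

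The 9 other activating members that fell in culture were scaffolds and effectors. The log2 fold changes in culture were -0.54 for Lat, -0.17 for its partner scaffold Lcp2, -0.27 for Grap2 (the bridge between them), -0.46 for Vav1 (an exchange factor for Rac) and -0.65 for Plcg1 (phospholipase C gamma). They were -1.02 for Was, which promotes actin branching, -0.53 for Sh2d2a, an adaptor of Lck, and -0.43 and -0.57 for Bcl10 and Malt1, which carry the signal to NF-kB. The adjusted p-values of these 9 ranged from 2.84e-14 for Plcg1 to 8.68e-05 for Lcp2. Grap2 was at -0.01 and no longer called once the GC and length trend was removed, and the other 8 kept their calls in the 11 settings. With IL-1b against cultured cells Lat (0.12 ± 0.04, adjusted p = 0.0440) and Lcp2 (0.10 ± 0.03, adjusted p = 0.0201) were higher, and Grap2 (-0.15 ± 0.03, adjusted p = 2.49e-04), Plcg1 (-0.19 ± 0.03, adjusted p = 8.64e-05) and Malt1 (-0.19 ± 0.06, adjusted p = 0.0138) were lower. On the TPM scale Lat and Lcp2 turned to -0.20 and -0.17, and some calls rested on single libraries. That of Lat was lost without IL-1b-treated replicate 2 or 3, cultured replicate 1 or 2 or fresh replicate 2 (highest adjusted p = 0.285). That of Lcp2 was lost without IL-1b-treated replicate 3 or cultured replicate 1 or 2 (highest adjusted p = 0.0794), and that of Malt1 without IL-1b-treated replicate 2 or 3 or cultured replicate 2 (highest adjusted p = 0.0873). With the GC and length trend removed Grap2 turned to 0.03, and Plcg1 was at -0.01 and no longer called. Was, Vav1, Sh2d2a, Bcl10, Zap70, Ptprc, Lck, Rasgrp1 and Prkcq were the 9 not called with IL-1b.

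**Figure D3:**
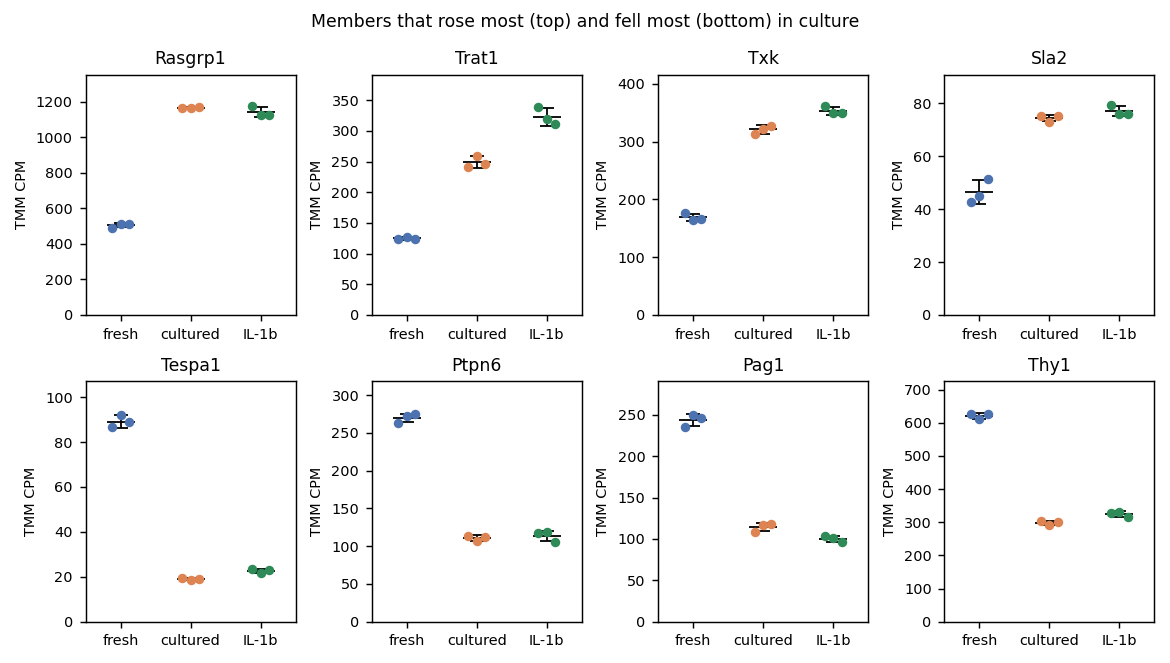
TMM-normalised CPM (y axis, from 0) of the 4 signalling genes outside the receptor chains with the largest rises (Rasgrp1, Trat1, Txk, Sla2) and falls (Tespa1, Ptpn6, Pag1, Thy1) in culture; points are libraries and bars the mean ± SD of 3. In each panel the fresh libraries stand apart from both cultured groups, and Trat1 takes the largest further step with IL-1b, at 0.37 on the log2 scale.

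Of the 15 negative regulators, 2 rose, 10 fell and 3 were not called in culture, with a median of -0.47, and 3 rose, 6 fell and 6 were not called with IL-1b, with a median of -0.10. These counts stand beside 29.4% of all tested genes higher and 28.9% lower in culture, and 15.6% and 13.3% with IL-1b. The share of all counts held by these 15 was 0.464% ± 0.00262 in fresh, 0.401% ± 0.000374 in cultured and 0.362% ± 0.00299 in IL-1b-treated cells (SD, n = 3), with no overlap. With library size alone, the median of the 15 was -0.53 in culture and -0.21 with IL-1b, and that of all tested genes -0.05 and -0.12. Ptpn6, Pag1 and Csk had the 3 largest falls in culture among the negative regulators. Ptpn6, the phosphatase Shp1, was at 263, 272 and 274 CPM in the 3 fresh libraries, 113, 107 and 112 CPM in the cultured ones and 117, 118 and 105 CPM in the IL-1b-treated ones. It fell 2.43-fold in culture (-1.28 ± 0.04, adjusted p = 1.03e-16) and was not called with IL-1b (0.03 ± 0.05). Pag1, the membrane anchor of Csk, was at 235, 250.4 and 246 (fresh), 109, 117 and 118 (cultured) and 104, 101 and 95.9 CPM (IL-1b-treated), a fall in culture (-1.09 ± 0.04, adjusted p = 1.64e-15) followed by a smaller one with IL-1b (-0.19 ± 0.05, adjusted p = 0.00289) that was at 0.06 with the GC and length trend removed. Csk, which places the inhibitory phosphate on Lck, fell in culture (-0.91 ± 0.04, adjusted p = 5.85e-15) and with IL-1b (-0.21 ± 0.04, adjusted p = 5.95e-04). The TPM ratio of Lck to Csk was 3.42 ± 0.0778 in fresh, 3.74 ± 0.185 in cultured and 4.46 ± 0.174 in IL-1b-treated cells. The same fall of B cell markers in culture stands beside these values.

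The Cbl ligases, which tag the receptor complex for degradation, were lower at each step. Cbl was at 498, 509.8 and 501 CPM in the 3 fresh libraries, 396, 408 and 389 CPM in the cultured ones and 299, 302 and 313 CPM in the IL-1b-treated ones, with no overlap between groups (-0.34 ± 0.03, adjusted p = 2.42e-09 in culture; -0.38 ± 0.03, adjusted p = 3.63e-09 with IL-1b). Cblb was at 129, 141 and 146 (fresh), 128, 119 and 115 (cultured) and 99.5, 93.5 and 96.4 CPM (IL-1b-treated). It fell in culture (-0.20 ± 0.05, adjusted p = 0.00265) and with IL-1b (-0.32 ± 0.05, adjusted p = 8.36e-05). Both kept their lower call with IL-1b in all 11 settings, where the GC and length trend reduced them to -0.16 and -0.18. In culture Cblb was not called once that trend was removed (-0.08). Ubash3a and Ubash3b, a pair of related proteins that oppose Zap70 signalling, were at 169.6, 174 and 168 (fresh), 117, 119.8 and 122 (cultured) and 106, 118 and 112 CPM (IL-1b-treated) for the first and 35.0, 38.8 and 37.2 (fresh), 24.9, 27.2 and 26.8 (cultured) and 21.3, 22.7 and 17.4 CPM (IL-1b-treated) for the second. Both fell in culture (-0.51 ± 0.05, adjusted p = 1.51e-09 for Ubash3a; -0.49 ± 0.10, adjusted p = 1.61e-04 for Ubash3b), and with IL-1b Ubash3b was lower (-0.36 ± 0.10, adjusted p = 0.00921) while Ubash3a was not called (-0.10 ± 0.05). Ubash3b lost both calls when the GC and length trend was removed, and its IL-1b call also without IL-1b-treated replicate 3 (adjusted p = 0.0667).

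The 2 Src-like adaptor proteins, which lower receptor levels together with Cbl, moved in opposite directions in culture. Sla was at 139.6, 135 and 134 CPM in the 3 fresh libraries, 97.3, 101 and 93.4 CPM in the cultured ones and 109.5, 107 and 107 CPM in the IL-1b-treated ones, and Sla2 at 42.8, 45.0 and 51.5 CPM in the 3 fresh libraries, 75.3, 73.2 and 75.2 CPM in the cultured ones and 79.3, 76.0 and 76.1 CPM in the IL-1b-treated ones. Sla fell (-0.49 ± 0.05, adjusted p = 3.76e-09) and Sla2 rose (0.69 ± 0.07, adjusted p = 4.97e-09), and both calls held in the 11 other settings. Their TPM ratio was 3.03 ± 0.410 in fresh, 1.30 ± 0.0696 in cultured and 1.45 ± 0.0683 in IL-1b-treated cells. With IL-1b Sla was higher than in cultured cells (0.15 ± 0.05, adjusted p = 0.0170), with -0.11 on the TPM scale and the call lost without cultured replicate 3 (adjusted p = 0.0856), and Sla2 was not called (0.05 ± 0.06). Sla2 overlaps Rab5if on the opposite strand, which had a mean of 679 counts in fresh and 1030 in cultured cells against 842 and 1180 for Sla2, and reads of both genes may not be separated.

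The diacylglycerol kinases, which remove the lipid that activates Rasgrp1, also parted. Dgka was at 1672, 1624 and 1667 CPM in the 3 fresh libraries, 2028, 2070 and 2030 CPM in the cultured ones and 2163, 2160 and 2150 CPM in the IL-1b-treated ones, and Dgkz at 545, 548 and 546 CPM in the 3 fresh libraries, 398, 376 and 405 CPM in the cultured ones and 326, 349 and 336 CPM in the IL-1b-treated ones. In culture Dgka rose (0.30 ± 0.02, adjusted p = 3.67e-11) and Dgkz fell (-0.47 ± 0.03, adjusted p = 2.65e-11), and the rise of Dgka was 0.06 on the TPM scale and not called (limma, adjusted p = 0.0501). With IL-1b Dgkz was lower again (-0.22 ± 0.03, adjusted p = 2.51e-05) and Dgka slightly higher (0.08 ± 0.02, adjusted p = 0.00766), although Dgka was at -0.24 on the TPM scale and Dgkz at -0.07 and no longer called with the GC and length trend removed. The TPM ratio of Dgka to Dgkz was 2.60 ± 0.0336 in fresh, 4.08 ± 0.380 in cultured and 5.32 ± 0.482 in IL-1b-treated cells, and that of Rasgrp1 to Dgkz 0.446 ± 0.0167 in fresh, 1.28 ± 0.0921 in cultured and 1.56 ± 0.161 in IL-1b-treated cells, with separate groups in both.

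Sit1, a transmembrane adaptor that recruits phosphatases, was at 65.3, 63.4 and 58.5 CPM in the 3 fresh libraries, 49.3, 35.3 and 44.9 CPM in the cultured ones and 49.3, 52.1 and 54.8 CPM in the IL-1b-treated ones. It fell in culture (-0.54 ± 0.09, adjusted p = 2.00e-05) and was higher again with IL-1b (0.27 ± 0.09, adjusted p = 0.0286), a call lost without IL-1b-treated replicate 2 or 3 or cultured replicate 2 (highest adjusted p = 0.214) and that was at -0.03 on the TPM scale. Ptpn22, a phosphatase of Lck and Zap70, stayed between 124 and 142 CPM in every library and was called in neither comparison. Dok1, an adaptor that recruits a Ras inhibitor, was at 15.2, 13.7 and 14.7 (fresh), 14.8, 13.6 and 13.2 (cultured) and 12.6, 10.5 and 11.1 CPM (IL-1b-treated) and its relative Dok2 at 55.3, 55.1 and 60.5 (fresh), 57.4, 54.4 and 58.9 (cultured) and 48.8, 63.7 and 64.8 CPM (IL-1b-treated). Neither was called in culture or with IL-1b, and Dok2 ranged more widely among IL-1b-treated libraries than between group means.

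**Figure D4:**
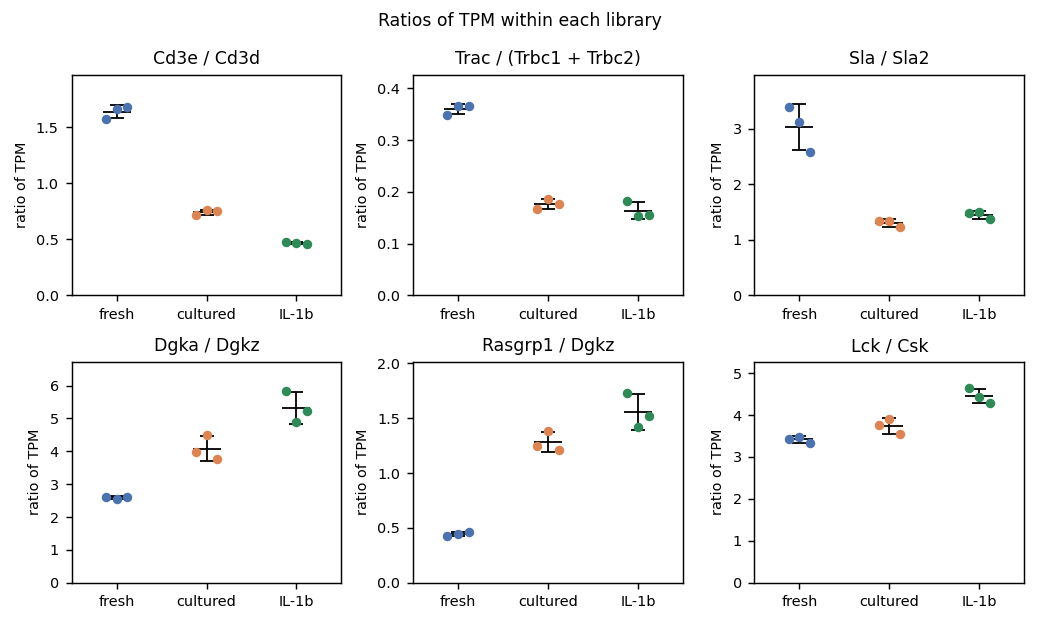
TPM ratios within each library (y axis, from 0, no unit) for 6 pairs of members; points are libraries and bars the mean ± SD of 3. Cd3e to Cd3d descends from 1.64 to 0.744 to 0.468, Sla to Sla2 drops from 3.03 to 1.30 in culture, and Dgka to Dgkz climbs from 2.60 to 5.32.

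Against fresh cells, IL-1b-treated cells had 13 members higher, 28 lower and 3 not called, beside 65.5% of all tested genes called (32.9% higher and 32.6% lower). The median of the members was -0.39, and that of all tested genes -0.01. It shares its fresh libraries with the culture comparison and its IL-1b-treated libraries with the cytokine comparison. Trat1 (1.37 ± 0.04, adjusted p = 2.31e-18), Rasgrp1 (1.18 ± 0.03, adjusted p = 1.90e-20), Txk (1.06 ± 0.04, adjusted p = 2.58e-17), Nck1 (0.98 ± 0.07, adjusted p = 4.90e-11) and Cd3d (0.94 ± 0.03, adjusted p = 1.17e-17) had the largest rises. Tespa1 (-1.97 ± 0.07, adjusted p = 1.22e-16), Pag1 (-1.28 ± 0.05, adjusted p = 5.76e-17), Ptpn6 (-1.25 ± 0.04, adjusted p = 9.00e-17), Was (-1.15 ± 0.06, adjusted p = 1.19e-13) and Csk (-1.12 ± 0.04, adjusted p = 1.03e-16) had the largest falls. Cd3e was at -0.86 and Cbl at -0.72. Lcp2, Ptpn22 and Dok2 were the 3 not called. Dok1 was lower (-0.35 ± 0.12, adjusted p = 0.0160), a call lost without IL-1b-treated replicate 2 or fresh replicate 1 (highest adjusted p = 0.0647) and at 0.03 with the GC and length trend removed. Sit1 was called at -0.27, and not without IL-1b-treated replicate 1 or fresh replicate 1 (highest adjusted p = 0.0579). Prkcq was called higher at 0.08, and not without fresh replicate 1 (adjusted p = 0.0797). On the TPM scale the sign of Prkcq turned, to -0.46 (limma, adjusted p = 3.62e-06), as did those of Cd247 (-0.12), Themis (-0.20) and Dgka (-0.18), all called higher on the TMM scale. Grap2, called lower at -0.42, was at 0.02 with the GC and length trend removed.

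The split of directions with IL-1b depended on the scaling. Against cultured cells, TMM gave 17 higher and 12 lower members, library size alone 7 and 22, log2(TPM + 1) values 3 and 31, and removal of the GC and length trend 16 and 6. Over all 13043 tested genes the same settings gave 2037 and 1731, 1192 and 3270, 289 and 4452, and 1921 and 597. Cultured against fresh cells, the split of the members went from 13 and 27 to 7 and 31 on the TPM scale and to 11 and 26 with the trend removed. That of all tested genes went from 3829 and 3765 to 1877 and 4842 and to 3827 and 3246. With IL-1b 8 members kept call and direction under all 11 settings that used every library. They were Cd3d, Cd3g and Trat1 higher and Cd3e, Sos1, Malt1, Cblb and Cbl lower. Of these, Malt1 lost its call in 3 of the fits that left out a library. In culture 31 of the 40 called members kept call and direction under the same settings, 7 higher (Cd3d, Trbc2, Txk, Trat1, Nck1, Rasgrp1, Sla2) and 24 lower. The like share of all called genes was not counted. Among the members the calls with IL-1b also differed with transcript length, and the like shares over all tested genes were not taken. Of the 22 members with effective lengths of 469 to 2139 bases, 12 were higher and 3 lower with IL-1b, and of the 22 longer ones 5 were higher and 9 lower. All 7 receptor chains, 6 of them higher and 1 lower, were among the shorter members, so this split is partly one by role. With the trend removed the shorter and longer members had medians of 0.10 and 0.04, against 0.12 and -0.09 before. Without IL-1b-treated replicate 3, the library set apart on the third component, 13 members were higher and 11 lower with IL-1b. The part of length in the difference of any single member was not tested.

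**Figure D5:**
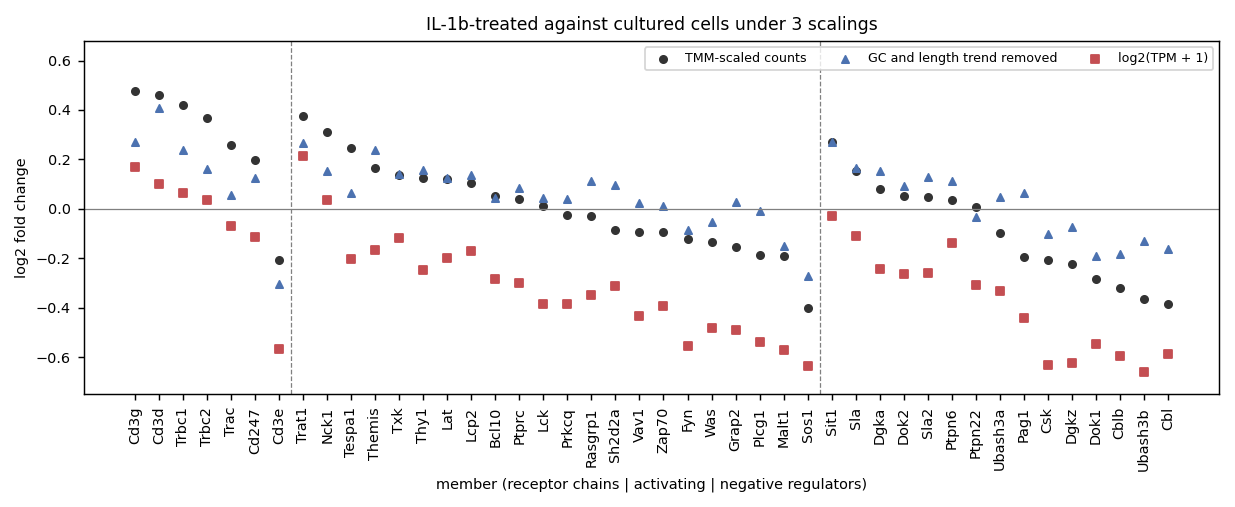
Log2 fold change (y axis) of each member (x axis, in 3 role groups) for IL-1b-treated against cultured cells, from TMM-scaled counts (circles), with the GC and length trend removed (triangles) and from log2(TPM + 1) values (squares). Each TPM value lies below its TMM value, and Cd3g, Cd3d, Trbc1, Trbc2, Trat1 and Nck1 stay above 0 under all 3 scalings while 12 members stay below, Cd3e and Sos1 among them.

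Around the module, other genes of the pathway were counted from lists of the same kind. These counts stand beside the shares of all tested genes called, 58.2% in culture and 28.9% with IL-1b, and nothing is read from a list near those shares. Of 10 co-receptors and Tec kinases, 2 rose and 6 fell in culture, and 2 rose and 4 fell with IL-1b. Tec, a kinase related to Txk, rose in culture from 18.5 ± 2.03 to 106 ± 4.43 CPM (log2 fold change 2.50 ± 0.07, adjusted p = 1.68e-18) and again with IL-1b from 106 ± 4.43 to 153 ± 6.75 CPM (log2 fold change 0.53 ± 0.06, adjusted p = 2.78e-07). Cd6, a surface glycoprotein of T cells, fell in culture from 504 ± 6.01 to 192 ± 7.58 CPM (log2 fold change -1.39 ± 0.04, adjusted p = 5.82e-19), as did Cd5, a negative regulator on the same cells, from 420.4 ± 6.29 to 179.5 ± 5.85 CPM (log2 fold change -1.23 ± 0.04, adjusted p = 9.76e-18). Cd4, the co-receptor that brings Lck to the complex, fell from 888 ± 9.74 to 590.0 ± 18.6 CPM (log2 fold change -0.59 ± 0.03, adjusted p = 4.40e-14). With IL-1b the adhesion receptor Cd2 rose from 248 ± 8.68 to 318 ± 6.62 CPM (log2 fold change 0.36 ± 0.04, adjusted p = 8.61e-08), and was at 0.04 on the TPM scale, where neither Cd2 nor Tec was called higher.

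Of 15 genes of calcium and NFAT signalling, 3 rose and 9 fell in culture (median -0.26), and 1 rose and 8 fell with IL-1b (median -0.18). Itpr3, a calcium release channel, fell in culture from 351 ± 2.02 to 169 ± 3.18 CPM (log2 fold change -1.06 ± 0.03, adjusted p = 3.12e-17), and Orai2, a subunit of the plasma membrane calcium channel, rose from 288 ± 3.76 to 435 ± 15.4 CPM (log2 fold change 0.60 ± 0.03, adjusted p = 3.09e-13). Of 15 genes of the Ras and MAP kinase arm, 3 rose and 5 fell in culture, a share below that of all tested genes, and with IL-1b 6 fell and 9 were not called. Rasal3, which switches Ras off, fell in culture from 1115 ± 32.7 to 494 ± 19.1 CPM (log2 fold change -1.17 ± 0.04, adjusted p = 1.92e-17). Of 8 genes of the NF-kB arm downstream of the receptor 2 rose and 6 fell in culture, and with IL-1b 4 fell and the other 4 were not called.

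Of 8 genes of the PI3K arm 1 rose and 6 fell in culture, and with IL-1b 4 fell and the other 4 were not called. Inpp5d, a lipid phosphatase, fell in culture from 207 ± 3.50 to 84.6 ± 3.89 CPM (log2 fold change -1.29 ± 0.05, adjusted p = 1.51e-16). Of 12 actin regulators 4 rose and 6 fell in culture, and 5 rose and 5 fell with IL-1b. Of 5 tested phosphatases and ligases outside the module 1 rose and 2 fell in culture, about the share of all tested genes, led by Ptpn7, a phosphatase of MAP kinases, which fell from 139.8 ± 8.30 to 34.0 ± 0.421 CPM (log2 fold change -2.04 ± 0.07, adjusted p = 6.19e-17). With the GC and length trend removed, the calcium list had 2 higher and 2 lower with IL-1b and the actin list 5 and 2. The lower genes of the Ras list went from 6 to 1 and those of the NF-kB list from 4 to 2, and the 4 calls of the PI3K list were lost. In culture the PI3K list then had 4 higher and 3 lower. On the TPM scale the lower genes with IL-1b were 12 of the calcium list, 10 of the Ras list, 8 of the NF-kB list, 5 of the PI3K list and 9 of the actin list, whose 5 higher calls were lost.

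Genes that receptor signalling induces within minutes to hours were mostly lower after culture. Of 13 such genes 12 were tested, and 2 rose and 9 fell in culture, with a median log2 fold change of -2.71. The transcription factor gene Egr1 fell from 63.6 ± 4.42 to 3.77 ± 0.728 CPM (log2 fold change -4.07 ± 0.13, adjusted p = 1.39e-17), Fos from 139 ± 2.03 to 19.4 ± 1.34 CPM (log2 fold change -2.84 ± 0.07, adjusted p = 3.45e-19) and Junb from 402 ± 29.3 to 55.8 ± 4.15 CPM (log2 fold change -2.85 ± 0.06, adjusted p = 1.89e-20). Il2ra, the alpha chain of the interleukin-2 receptor, rose from 1.65 ± 0.570 to 40.7 ± 1.57 CPM (log2 fold change 4.62 ± 0.15, adjusted p = 3.64e-17), and Myc rose from 84.5 ± 3.60 to 115 ± 1.52 CPM (log2 fold change 0.45 ± 0.05, adjusted p = 1.07e-07). With IL-1b against cultured cells 2 were higher and 1 lower, with Myc lower from 115 ± 1.52 to 95.4 ± 5.15 CPM (log2 fold change -0.27 ± 0.05, adjusted p = 3.17e-04). Egr3, a relative of Egr1, was called higher at 0.657 ± 0.0818 against 0.209 ± 0.0681 CPM (adjusted p = 0.00444), and no fold is given since the cultured level is near the floor of 3 counts per library. Cd69, an early surface marker, was higher from 8.31 ± 1.11 to 11.1 ± 1.87 CPM (log2 fold change 0.42 ± 0.14, adjusted p = 0.0229), but after removal of the GC and length trend it was at 0.30 and not called (adjusted p = 0.127) and at 0.04 on the TPM scale.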

How the data were processed

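RNAiso PLUS extraction and a directional library kit were used, per the labels' protocols. STAR and RSEM with mm10 are named in the submitters' processing notes, and their versions, the annotation and the strand setting were not given in the sources used here. Per the file headers, the deposited tables give RSEM expected counts per gene, which share ambiguous reads among genes and are not normalised. The TPM values deposited by the authors are normalised for effective length and library, and the deposited FPKM values were not used. Gene and effective lengths are those of the deposited tables, and a floor of 3 counts equals 0.13 to 0.222 CPM.

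Expected counts were rounded. Symbols came from GENCODE M21 (GRCm38, the same assembly as mm10) for 55141 of 55487 identifiers, and unmatched ones stayed in totals and tests. One edgeR 4.0.16 quasi-likelihood fit in R 4.3.3 (TMM, filterByExpr, all 9 libraries, group as the only term) tested 13043 genes, whose common biological coefficient of variation was 0.0665. Alternatives were library size alone, RLE factors, 2 other filters on low counts, DESeq2 1.42.0, limma 3.58.1 on log2(TPM + 1), an effective length offset, a GC and length trend removed per library with mgcv 1.9.3, only the groups compared, a replicate block with and without that trend, and leaving out each library. Python 3.11.15 with pandas 2.3.3 and matplotlib 3.10.9 made the summaries and figures.

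Members, lists and tests were chosen with earlier results of these data known. All members may be named. Values per library are given for the receptor chains, for the 4 other members called with the largest difference each way against cultured and against fresh cells, and for the paralog pairs. Other lists give at most 3 genes each way by smallest adjusted p. Some genes of these lists are not reported here. In data simulated for the IL-1b comparison with cultured cells (12777 genes), 36, 86, 80 and 100% of genes changed by 1.2, 1.5, 2 and 4-fold were recovered, and 14 unchanged genes were called.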

Additional observations from a re-analysis of the deposited data

How the results depend on the processing

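Scaling moved the counts most. For IL-1b-treated against cultured cells the members called higher were 7 with library size alone, 3 on log2(TPM + 1) and 11 with an effective length offset, against 17. Those called lower were 22 and 31 under the first 2 of these, and 6 after removal of the GC and length trend (5 when combined with the replicate block), against 12. On log2(TPM + 1) 7 members were higher in cultured than fresh cells and 6 in IL-1b-treated than fresh cells, against 13 each. Leaving out each library gave 13 to 17 higher and 11 to 13 lower with IL-1b against cultured cells, 13 higher and 27 lower in each fit for cultured against fresh cells, and 12 to 14 higher and 26 to 28 lower for IL-1b-treated against fresh cells. Calls over all tested genes moved too. With IL-1b against cultured cells 2037 genes were higher and 1731 lower in the reported fit. These became 1192 and 3270 with library size alone and 289 and 4452 on log2(TPM + 1). With an effective length offset they were 1291 and 850, and after removal of the GC and length trend 1921 and 597. The cause of these moves was not tested. Over all settings, 43 single log2 fold changes had the other sign and were called in the reported fit, in the alternative or in both. Sign changes of members called in neither are not listed. On log2(TPM + 1) they were Bcl10 (-0.29), Cd247 (-0.11), Dgka (-0.24), Lat (-0.20), Lck (-0.38), Lcp2 (-0.17), Ptpn22 (-0.31), Ptprc (-0.30), Sit1 (-0.030), Sla (-0.11), Sla2 (-0.26), Tespa1 (-0.20), Themis (-0.17), Thy1 (-0.25), Trac (-0.069) and Txk (-0.12) for IL-1b-treated against cultured cells, Cd247 (-0.011), Cd3g (-0.10), Prkcq (-0.074), Themis (-0.030) and Trbc1 (-0.023) for cultured against fresh cells, and Cd247 (-0.12), Dgka (-0.18), Dok2 (-0.55), Prkcq (-0.46) and Themis (-0.20) for IL-1b-treated against fresh cells. With library size alone they were Dgka (-0.037), Lck (-0.10), Lcp2 (-0.011) and Ptprc (-0.075) against cultured cells and Prkcq (-0.088) against fresh cells. With the GC and length trend removed they were Grap2 (0.026), Pag1 (0.065) and Rasgrp1 (0.11) for IL-1b-treated against cultured cells, Cd3g (-0.26) for cultured against fresh cells and Dok1 (0.028) and Grap2 (0.015) for IL-1b-treated against fresh cells, and with the replicate block added Grap2 (0.026), Pag1 (0.066) and Rasgrp1 (0.11), Cd3g (-0.26) and Dok1 (0.027) and Grap2 (0.015). Same-numbered libraries did not deviate together over all tested genes (correlations of -0.0222 to 0.019). These values cannot tell whether equal numbers mark a shared animal or culture, since a link that moved few genes would leave them near 0. The replicate block alone gave 16 higher and 12 lower, 13 and 27, and 13 and 28 in the 3 comparisons. The lowest count of any member in a library was 146, for Dok1. In the simulated IL-1b comparison 36% of 1.2-fold changes were recovered, among genes drawn from a wide range of counts. Differences of that size can thus be missed in such genes. That share was not simulated at the counts of the members, some of which were called at smaller folds (Dgka at 1.056-fold).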
